A study of Mus musculus with 10 samples.

Results

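The mitochondrial genome transcripts were taken as every gene entry whose name starts with mt- in a count table of mouse RNA sequencing, which gave 37 of 46959 gene entries. They comprised 2 ribosomal RNAs (rRNAs), 22 transfer RNAs (tRNAs) and 13 protein-coding RNAs (mRNAs). In the deposited coordinates (mm10/GRCm38, chromosome MT), both rRNAs, 14 tRNAs and 12 mRNAs lie on the plus strand, and 8 tRNAs and mt-Nd6 lie on the minus strand.

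The 10 libraries form 5 groups of 2 pooled RNAs, all from animals of 8 to 10 weeks. The LPS_IL4_SAHA and LPS_IL4 groups are wt CD43- spleen cells labelled as strain 129, kept for 48 h in culture with interleukin 4 (IL4, 20 ng/ml) and the bacterial cell wall component lipopolysaccharide (LPS, 5 µg/ml). SAHA (vorinostat), an inhibitor of histone deacetylases, was added at 200 nM by the sample names or 200 ng/ml by the protocol. The 2KO, deltaEmu and RAG2_deficient groups are femoral B-cells labelled as C57BL6 and lysed without culture. Emu and the 3'RR are enhancers of the immunoglobulin heavy chain locus, and RAG2 is a subunit of the enzyme that recombines antigen receptor genes. The labels do not spell out 2KO, although the series' design names 5'Eµ/3'RR-deficient mice, and no wild-type femoral group is among the samples.

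Several labels disagree. The growth protocol names KOKI and BLACK-6 mice for the spleen cells, against the strain label 129, and the design leaves out IL4. Count columns are numbered, and were matched to samples by the number that ends each description. The numbers in the titles give the same sample for 2 columns and another for 8, and no comparison below would hold under them. Rag1, a recombinase gene of immature lymphocytes, had 3130 to 18974 counts in the columns read as femoral and at most 1 in those read as spleen. The titles also place SAHA on the opposite spleen samples, so the sign of the SAHA comparison would turn round if the titles were right. The pools are named 4_et_7 and 6_et_8 in the spleen, where the design speaks of pools of 3 samples. Each p-value below measures the spread between pools only. Rag2 itself had 367 and 492 counts in RAG2_deficient, against 277 to 423 in the other femoral libraries. A count over the whole gene does not show whether part of it is deleted, so it does not check that label.

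Mitochondrial DNA is transcribed from both strands as long precursors that span most of the circle. tRNAs sit between the rRNAs and mRNAs, and their excision by RNase P at one end and ELAC2 at the other frees the neighbouring RNAs. The mRNAs encode subunits of respiratory complexes I, III, IV and V, and are translated on mitochondrial ribosomes built on mt-Rnr1 and mt-Rnr2. Activated lymphocytes are known to enlarge their mitochondrial content.

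A set of 4 tRNA genes is printed here because the results on tRNAs below turn on them. Sequences are the GENCODE vM21 transcripts on GRCm38, whose length equalled the deposited gene length for all 37 members. Capitals mark the anticodon, which a script placed by the pairing of the stem around it.
mt-Tl1: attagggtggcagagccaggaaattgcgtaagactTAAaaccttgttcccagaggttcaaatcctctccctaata
mt-Tg: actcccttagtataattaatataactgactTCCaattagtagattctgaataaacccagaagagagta
mt-Tt: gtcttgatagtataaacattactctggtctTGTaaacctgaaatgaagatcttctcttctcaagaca
mt-Tp: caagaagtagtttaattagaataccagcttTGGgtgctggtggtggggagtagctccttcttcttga
These genes encode the tRNAs for leucine (UUR codons), glycine, threonine and proline. mt-Tt occupies 15289 to 15355 on the plus strand, directly after mt-Cytb, and mt-Tp occupies 15356 to 15422 on the minus strand, so the pair abut with opposite orientation. mt-Tg occupies 9391 to 9458 on the plus strand, directly before mt-Nd3 at 9459 to 9806.

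A further pair of sequences is shown because mt-Nd3 and its nuclear copy were counted separately. A stretch of mouse chromosome 1 holds a copy of part of mitochondrial DNA, annotated as 7 gene entries on the minus strand. Gm28438 (chromosome 1, 24612775 to 24613119) has the same base as mt-Nd3 at 344 of 345 compared positions. The exception is T3C, counted from 1 at the first base of mt-Nd3 (position 9461 of MT), and it is in capitals below.
mt-Nd3: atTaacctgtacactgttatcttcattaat
Gm28438: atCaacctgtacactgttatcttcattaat
Among the other mRNAs, the copies matched mt-Co2 at 681 of 681 compared bases, mt-Atp6 at 678 of 678, mt-Co3 at 783 of 783 and mt-Nd4l at 294 of 294. The copy of mt-Nd4 matched 876 of its 1378 bases, and the copy of mt-Co1 matched 486 of the last 492. mt-Atp8 shared 43 bases with a copy, which are its overlap with mt-Atp6. How reads that match both places were counted is not given in the sources used here.

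Total counts ran from 17710154 to 25544275 per library. The share assigned to the 37 members was 3.24% and 2.77% in the LPS_IL4_SAHA libraries (4_et_7 and 6_et_8), and 2.83% and 3.94% in the LPS_IL4 libraries of the same pools. It was 3.18% and 3.23% in 2KO (replicates 1 and 3), 2.85% and 3.52% in deltaEmu (5 and 7), and 4.88% and 5.74% in RAG2_deficient (1 and 2). Both RAG2_deficient libraries thus lay above the other 8. Without rRNA genes they did not, with shares of 1.04% and 1.13%. The same share was 1.10% in LPS_IL4_SAHA 4_et_7, 1.15% in LPS_IL4 6_et_8 and 0.819% to 0.937% in the remaining libraries. The rRNAs took 66.9% to 81.2% of the mitochondrial counts, and mt-Co1 alone took 47.5% to 66.2% of the mRNA counts.

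**Figure D1:**
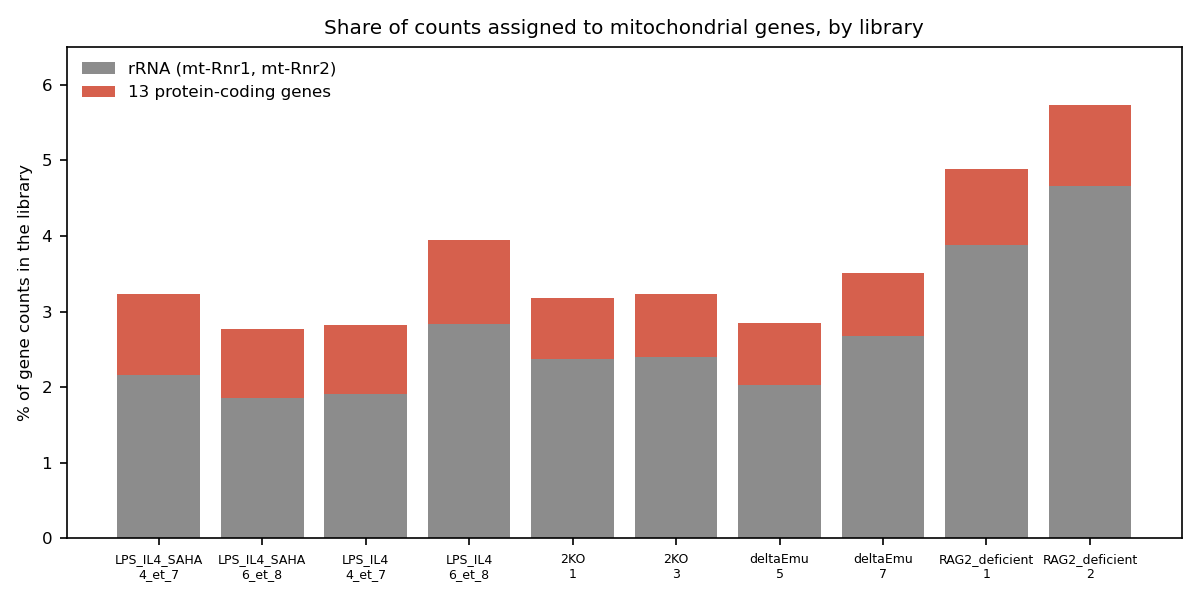
Percent of gene counts assigned to mitochondrial genes in each of the 10 libraries, split into rRNA (grey) and the 13 protein-coding genes (red), with each bar starting at 0; tRNA counts are too few to be seen. The RAG2_deficient bars reach 4.88% and 5.74%, and the other bars end between 2.77% and 3.94%.

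The groups labelled as B cells were checked against marker genes. Mature B markers (10 genes, among them Ms4a1, Cd22 and Cd74) summed to 4647 to 6517 CPM (counts scaled by library size) in the spleen libraries and 368 to 894 CPM in the femoral libraries. Pro-B markers (10 genes) summed to 687 to 1150 CPM in 2KO and deltaEmu, 2727 to 3136 CPM in RAG2_deficient and 868 to 1309 CPM in the spleen libraries, so the summed list did not set 2KO and deltaEmu apart from the spleen. Neutrophil markers (10 genes) summed to 6702 to 20489 CPM in the femoral libraries and to at most 0.543 CPM in the spleen libraries, so the femoral samples also held RNA of other marrow cells. In bulk RNA, fewer cells of a type and less RNA per cell cannot be told apart.

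The libraries of a group differed from each other in LPS_IL4 and in RAG2_deficient. With 2 libraries in RAG2_deficient, neither can be called the one apart. mt-Nd5 and mt-Nd6 overlap by 14 bases on opposite strands, and both encode membrane subunits of complex I. The ratio of mt-Nd5 to mt-Nd6 counts was 1.85 and 1.33 in the LPS_IL4_SAHA libraries and 1.29 in LPS_IL4 4_et_7, but 9.87 in LPS_IL4 6_et_8. It was 14.4 in RAG2_deficient 2, against 4.71 in RAG2_deficient 1. The ratio was 5.48 and 10.1 in 2KO and 3.60 and 2.66 in deltaEmu. The libraries LPS_IL4 6_et_8 and RAG2_deficient 2 had the lowest ratios of mt-Rnr2 to mt-Rnr1 of all 10, at 6.37 in LPS_IL4 6_et_8 and 7.49 in RAG2_deficient 2, against 8.24 to 11.0 elsewhere. Rn7sk, a nuclear small RNA that binds a regulator of RNA polymerase II, took 1.33% of counts in LPS_IL4 6_et_8, against 3.31% to 4.35% in the other spleen libraries. It took 5.83% in RAG2_deficient 2 and 11.8% in RAG2_deficient 1, the highest share of all 10 libraries. The other femoral libraries had 4.51% to 8.39%. The part of Rn7sk in the differences below was not tested.

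Levels differed far more between members than between groups. Per kb of gene length, mt-Rnr2, the large ribosomal RNA, had the highest level in every library, from 11318 to 23963 CPM per kb. mt-Rnr1, the small ribosomal RNA, ran from 1759 to 4986 CPM per kb. Among the mRNAs, mt-Co1, a catalytic subunit of complex IV, led at 2633 to 4207 CPM per kb. mt-Nd1 of complex I followed at 822 to 1837 CPM per kb, with mt-Cytb of complex III at 964 to 1623 CPM per kb. The ranges of mt-Nd1 and mt-Cytb overlap, and so do those of mt-Nd2, mt-Nd4, mt-Nd5 and mt-Nd6, all of complex I, which together spanned 106 to 651 CPM per kb.

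The remaining mRNAs were counted at much lower levels, and all share bases with annotated copies on chromosome 1. The 5 mRNAs copied to within 3 bases of their length (mt-Co2 and mt-Co3 of complex IV, mt-Atp6 of complex V, mt-Nd3 and mt-Nd4l of complex I) had 0 to 21.4 CPM per kb. The 5 mRNAs without an annotated copy had 106 to 1837 CPM per kb in the same libraries, and the groups of genes did not overlap. mt-Atp8 of complex V had 0 to 1.58 CPM per kb.

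Counts of the copies exceeded those of the mitochondrial genes they match. Gm28661 had 4.07 to 13.3 times the counts of mt-Co2, Gm10925 had 15.2 to 30.1 times those of mt-Atp6, and Gm28437 had 7.97 to 12.7 times those of mt-Co3. Adding both CPM values gave 49.8 to 159 CPM per kb for mt-Co2, 41.6 to 89.8 for mt-Atp6, 59.4 to 132 for mt-Co3, 28.9 to 84.6 for mt-Nd3 and 1.66 to 10.8 for mt-Nd4l. Even summed, mt-Nd4l, mt-Nd3 and mt-Atp6 stayed below the lowest value of the 5 mRNAs without a copy. The copies of mt-Co1 and mt-Nd4 were counted at under 0.05 of the member in every library, with ratios for mt-Nd4 of 0.00746 to 0.0396. Values of the copied members are therefore uncertain as levels of mitochondrial RNA.

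**Figure D2:**
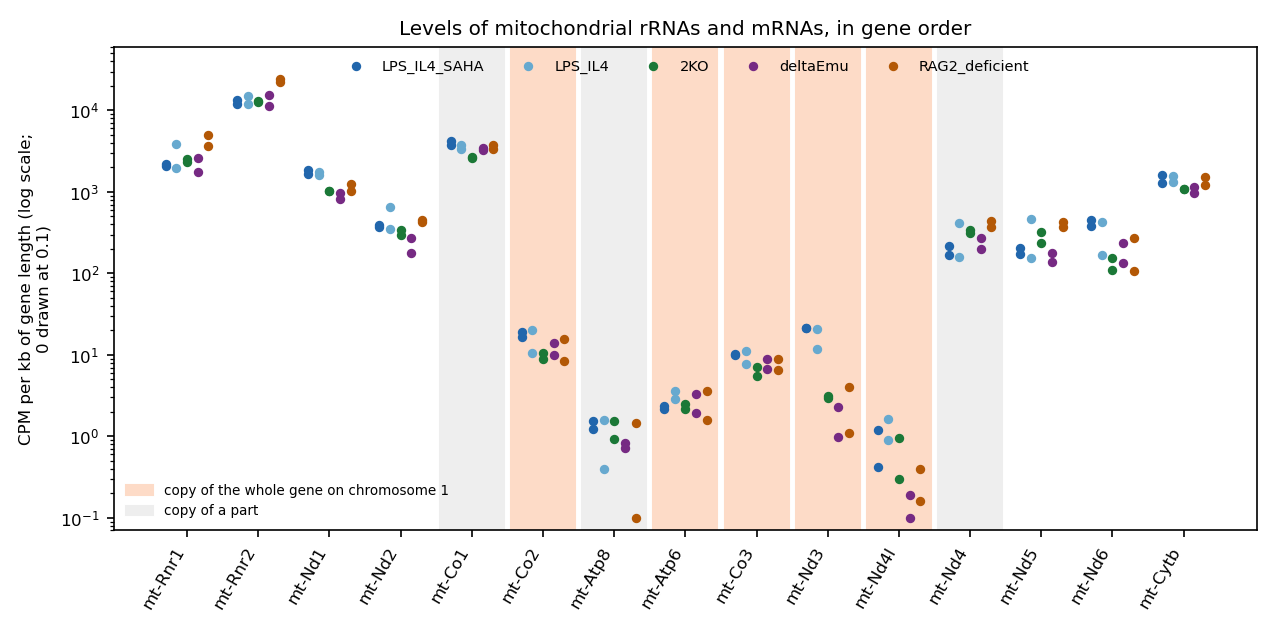
CPM per kb of gene length (log scale, 0 drawn at 0.1) of the 2 rRNAs and 13 mRNAs in gene order, 1 point per library, coloured by group; shading marks genes copied on chromosome 1 whole (orange) or in part (grey). The 5 wholly copied mRNAs lie at or below 21.4 CPM per kb and the unshaded mRNAs at or above 106.

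tRNA genes drew few counts. The 22 genes together had 87 to 483 counts per library, or at most 0.00241% of all counts. mt-Tp (1050 counts over the 10 libraries), mt-Tt (887), mt-Tq for glutamine (539) and mt-Tw for tryptophan (436) made up most of them. mt-Tv, mt-Td and mt-Tk, for valine, aspartate and lysine, had 0 counts in all 10 libraries, which allows up to 3 counts in each. mt-Th for histidine and mt-Ts2 for serine had 1 count in all, mt-Tf for phenylalanine 2, mt-Tr for arginine 5 and mt-Tl2 for leucine 6. The 3 tRNA genes that follow mt-Nd4 (mt-Th, mt-Ts2 and mt-Tl2) lie between mt-Nd4 and mt-Nd5, which had at least 4122 and 5161 counts in every library.

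The filter on low counts kept 23 members in the spleen fit (2 rRNAs, 10 tRNAs, 11 mRNAs) and 21 in the femoral fit (2, 8 and 11). mt-Atp8 and mt-Nd4l passed in neither.

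**Figure D3:**
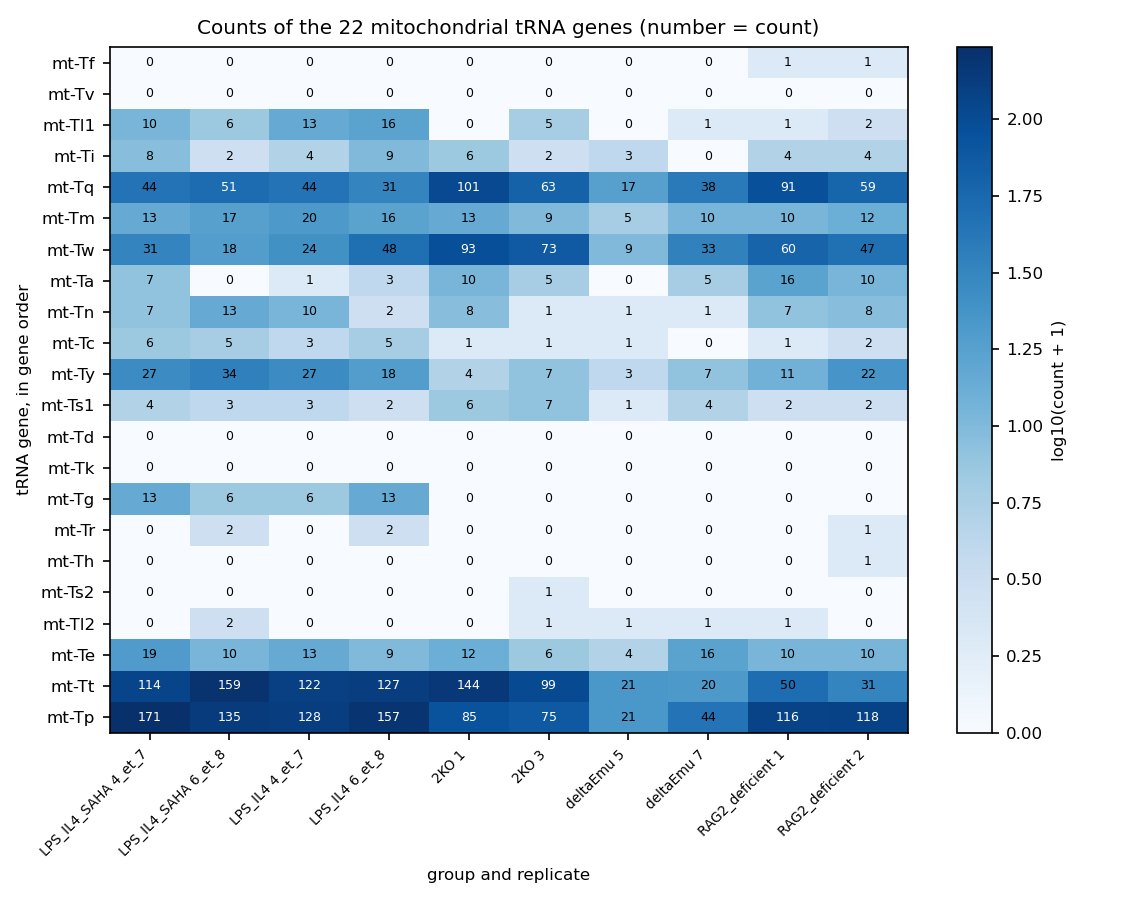
Counts of the 22 mitochondrial tRNA genes (rows, in gene order) in the 10 libraries (columns, grouped), with the count printed in each cell and colour giving log10(count + 1). mt-Tg has 6 to 13 counts in each spleen library and 0 in each femoral library, and mt-Tt has 20 and 21 counts in deltaEmu.

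The effect of SAHA on spleen cells was examined first. SAHA cultures and cultures with LPS and IL4 alone had overlapping levels of most members, and no member was called among 23 tested (edgeR quasi-likelihood test, Benjamini-Hochberg adjustment over 13913 genes, threshold 0.05). The background was 0% of all genes called. No member, and 187 of all genes (1.34%), had an unadjusted p under 0.05, and DESeq2 also called 0 genes.

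mt-Rnr1 had 2130 and 2000.0 CPM in LPS_IL4_SAHA (4_et_7 and 6_et_8), against 1866 and 3738 CPM in LPS_IL4. mt-Rnr2 had 20951 and 18759 CPM, against 18857 and 23815 CPM in LPS_IL4. mt-Nd5, the mRNA with the largest fitted difference, had 370.6 and 312.8 CPM in LPS_IL4_SAHA, against 282.6 and 855.7 CPM in LPS_IL4. In each case LPS_IL4 6_et_8 lay above the other 3 libraries, which were close together. The log2 fold changes were -0.48 ± 0.41 for mt-Rnr1 (SE, adjusted p = 0.939), -0.14 ± 0.39 for mt-Rnr2 (adjusted p = 0.952) and -0.78 ± 0.53 for mt-Nd5 (adjusted p = 0.939). Without LPS_IL4 6_et_8 they became 0.13, 0.06 and 0.26, with no member and 0.0351% of all genes called.

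Without LPS_IL4 4_et_7, 5 members were called, beside 18.0% of all genes. mt-Rnr1 (-0.87), mt-Nd2 (-0.78), mt-Nd4 (-1.12) and mt-Nd5 (-1.34) were then lower in LPS_IL4_SAHA and mt-Nd6 (1.32) higher. mt-Nd6 had 200.2 and 235.9 CPM in LPS_IL4_SAHA, against 219.1 and 86.7 CPM in LPS_IL4, so it was lowest in LPS_IL4 6_et_8.

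Summed classes showed the same spread. The mRNA sum was 10788 ± 898 CPM in LPS_IL4_SAHA and 10398 ± 604 CPM in LPS_IL4 (SD, n = 2 each). The rRNA sum was 21919 ± 1642 CPM in LPS_IL4_SAHA and 24138 ± 4829 CPM in LPS_IL4, and the tRNA sum was 20.3 ± 0.751 CPM and 20.4 ± 2.89 CPM in the same groups. None of these differences passed the spread between libraries.

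The next comparison asked how 2KO and deltaEmu femoral cells differ. mt-Tt rose in 2KO, and it was the 1 member called of 21 tested, where 3.70% of all 16538 genes were called and 1.79% were called higher. It had 6.86 and 4.41 CPM in 2KO (144 and 99 counts), against 1.03 and 1.14 CPM in deltaEmu (21 and 20 counts). The groups did not overlap, which held for 10 of the 21 members tested, so separation does not mark out mt-Tt. The share over all genes is not given here. The fitted log2 fold change was 2.38 ± 0.43 (5.20-fold, adjusted p = 0.0254). Across the other settings the adjusted p ran from 5.87e-08 without a filter to 0.256, and the call was lost without 2KO 1 (0.12), deltaEmu 5 (0.256) or deltaEmu 7 (0.243). Without a filter on low counts, 5 members and 5.60% of genes were called. DESeq2 called 2 members and 5.74% of genes, and the fit of only these groups called 2 members and 9.81% of genes.

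Of the other 7 tRNAs tested, 5 had lower and 2 had higher mean levels in deltaEmu, without passing the test. The 2 that were higher were mt-Te for glutamate (0.419 CPM in 2KO, 0.555 CPM in deltaEmu) and mt-Ty (0.251 CPM in 2KO, 0.274 CPM in deltaEmu). mt-Tw had 4.43 and 3.25 CPM in 2KO, against 0.443 and 1.88 CPM in deltaEmu (log2 1.75 ± 0.59, adjusted p = 0.198). mt-Tp had 4.05 and 3.34 CPM in 2KO, against 1.03 and 2.51 CPM in deltaEmu (log2 1.08 ± 0.42, adjusted p = 0.269). The tRNA sum was 19.4 ± 5.08 CPM in 2KO and 7.28 ± 4.24 CPM in deltaEmu (SD, n = 2 each), a log2 ratio of 1.41 with groups that did not overlap. deltaEmu 5 was the lowest library of all 10, with 4.29 CPM, and deltaEmu 7 had 10.3 CPM. Erythroid markers (9 of 10 genes found, none at 0 in the femoral libraries) also differed between 2KO and deltaEmu. They summed to 10435 and 15436 CPM in 2KO and 2457 and 2603 CPM in deltaEmu. RAG2_deficient had erythroid sums of 5712 and 3102 CPM, below both 2KO libraries. Its tRNA sum was 19.3 ± 4.66 CPM (SD, n = 2), close to that of 2KO. The spleen libraries had erythroid sums of at most 5.43 CPM. Their tRNA sums were 20.3 ± 0.751 CPM in LPS_IL4_SAHA and 20.4 ± 2.89 CPM in LPS_IL4 (SD, n = 2 each). Neutrophil markers summed to 10671 and 8961 CPM in 2KO and 17855 and 20489 CPM in deltaEmu. Their part in the tRNA difference was not tested.

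Of the longer RNAs, none was called. mt-Nd5 had 435.3 and 583.8 CPM in 2KO, against 254.3 and 322.9 CPM in deltaEmu, with no overlap (log2 0.83 ± 0.26, adjusted p = 0.162). It was called by DESeq2 (adjusted p = 0.0231), without a filter (0.0354), in the fit of only these groups (0.0423) and without either RAG2_deficient library (0.0433 and 0.042). The rRNAs overlapped between the groups. mt-Rnr1 had 2225 and 2403 CPM in 2KO, against 1679 and 2464 CPM in deltaEmu (log2 0.17 ± 0.35, adjusted p = 0.884). mt-Rnr2 had 20444 and 19797 CPM in 2KO, against 17905 and 24651 CPM in deltaEmu (log2 -0.07 ± 0.52, adjusted p = 0.97). mt-Nd3 had the largest fitted difference among the mRNAs, on 7 to 23 counts per library, at log2 0.91 ± 0.67 (adjusted p = 0.588). mt-Cytb, directly before mt-Tt, had 1259 and 1251 CPM in 2KO and 1103 and 1330 CPM in deltaEmu (log2 0.06 ± 0.28). Relative to the mt-mRNA total, mt-Tt was again the only member called (log2 2.46 ± 0.41, adjusted p = 0.00701), where 4.29% of all genes were called.

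The libraries labelled RAG2_deficient served as the other femoral group. Against them, 2KO had 0 of 21 members called, where 4.31% of all genes were called. An unadjusted p under 0.05 was reached by 3 members and by 3183 genes (19.2%), and DESeq2 called mt-Rnr1 and mt-Rnr2 as lower in 2KO, beside 7.51% of genes. Without a filter 1 member and 7.18% of genes were called. mt-Rnr1 had 2225 and 2403 CPM in 2KO, against 3454 and 4762 CPM in RAG2_deficient. mt-Rnr2 had 20444 and 19797 CPM in 2KO, against 37910 and 35670.4 CPM in RAG2_deficient. Both rRNAs were separated between the groups, at log2 -0.86 ± 0.36 (adjusted p = 0.241) and -0.90 ± 0.52 (adjusted p = 0.414). Separation held for 12 of the 21 members tested, so it does not mark out the rRNAs. The share over all genes is not given here.

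The mRNAs also ran lower in 2KO, at a median log2 of -0.34 over 11 tested, against -0.88 for the 2 rRNAs. The mRNA sum was 7690 ± 120 CPM in 2KO and 9959 ± 905 CPM in RAG2_deficient (SD, n = 2 each). The groups did not overlap for 6 of the 11 mRNAs (mt-Nd1, mt-Nd2, mt-Co1, mt-Nd4, mt-Nd5 and mt-Cytb), all lower in 2KO. Without the share of all genes separated in this way, that count does not mark out the mRNAs. The largest fitted difference was that of mt-Nd5, with 435.3 and 583.8 CPM in 2KO and 667.8 and 787.4 CPM in RAG2_deficient (log2 -0.54 ± 0.26, adjusted p = 0.305). mt-Tt had 6.86 and 4.41 CPM in 2KO, against 2.96 and 1.50 CPM in RAG2_deficient (log2 1.32 ± 0.40, adjusted p = 0.119). mt-Ty had 4 and 7 counts in 2KO and 11 and 22 counts in RAG2_deficient. mt-Ta for alanine had 10 and 5 counts in 2KO and 16 and 10 counts in RAG2_deficient. Both passed the filter through RAG2_deficient, where they are high. Their direction was fixed by it, so they are given as counts only. mt-Tt was among the 12 of 21 members separated between the groups, a count that also includes mt-Ty and mt-Ta. mt-Tp (log2 -0.80 ± 0.40) had lower values in 2KO, and the tRNA sums had a log2 ratio of 0.01. Scaled to the mt-mRNA total, mt-Tt was called as higher in 2KO (log2 1.73 ± 0.39, adjusted p = 0.0235), beside 13.9% of all genes.

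deltaEmu had lower levels of 3 members than RAG2_deficient, and none higher, of 21 tested. The background was 9.81% of genes called in either direction, with 5.39% lower and 4.42% higher. The comparison shares its deltaEmu libraries with the first femoral comparison and its RAG2_deficient libraries with the second. mt-Nd5 fell in deltaEmu, with 254.3 and 322.9 CPM, against 667.8 and 787.4 CPM in RAG2_deficient (log2 -1.37 ± 0.26, adjusted p = 0.018). mt-Nd2, also a complex I subunit, had 186.1 and 282.9 CPM in deltaEmu, against 467.2 and 440.9 CPM in RAG2_deficient (log2 -0.99 ± 0.26, adjusted p = 0.0499). mt-Tp had 1.03 and 2.51 CPM in deltaEmu (21 and 44 counts), against 6.88 and 5.72 CPM in RAG2_deficient (116 and 118 counts), at log2 -1.87 ± 0.42 (adjusted p = 0.0313).

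The groups did not overlap for any of these 3. That held for 14 of the 21 members tested, mt-Ty and mt-Ta included, whose direction the filter fixed. Separation therefore does not mark out the 3. The share over all genes is not given here. All 3 remained called without RAG2_deficient 2, the library that stood apart, at adjusted p of 0.0171 to 0.0451, where 8.83% of genes were called. None of the 3 was called without deltaEmu 5 (adjusted p 0.205 to 0.391, 1.49% of genes called), and mt-Tp alone of the 3 was called without deltaEmu 7 (0.0456, 1.84% of genes called). Without a filter 8 members and 12.0% of genes were called, with DESeq2 6 and 12.5%, and in the fit of only these groups 1 and 7.94%. mt-Nd2 was also not called without 2KO 1 (0.107) or 2KO 3 (0.102). Relative to the mt-mRNA total, mt-Nd5 (log2 -1.07 ± 0.28, adjusted p = 0.0309) and mt-Tp (log2 -1.57 ± 0.40, adjusted p = 0.0264) were called, beside 17.1% of all genes.

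Both rRNAs had lower values in deltaEmu without passing the test. mt-Rnr1 had 1679 and 2464 CPM in deltaEmu, against 3454 and 4762 CPM in RAG2_deficient (log2 -1.03 ± 0.36, adjusted p = 0.12). mt-Rnr2 had 17905 and 24651 CPM in deltaEmu, against 37910 and 35670.4 CPM in RAG2_deficient (log2 -0.83 ± 0.52, adjusted p = 0.37). DESeq2 called both (adjusted p = 0.00327 for mt-Rnr1 and 0.00433 for mt-Rnr2), and mt-Rnr1 was also called without a filter (0.012) and without RAG2_deficient 1 (0.0185). The rRNA sum was 22434 ± 331 CPM in 2KO, 23350.2 ± 5325 CPM in deltaEmu and 40898 ± 659 CPM in RAG2_deficient (SD, n = 2 each). The mRNA sum was 8197 ± 332 CPM in deltaEmu and 9959 ± 905 CPM in RAG2_deficient. The rRNA to mRNA ratio was 2.98 and 2.86 in 2KO, 2.46 and 3.22 in deltaEmu and 3.90 and 4.34 in RAG2_deficient, so RAG2_deficient was highest in both libraries. Nuclear rRNA entries had 266 and 284 counts in 2KO, 304 and 319 in deltaEmu and 113 and 269 in RAG2_deficient. Whether rRNA was removed to the same degree in each library was not tested. Stromal markers (8 genes, none at 0 in the femoral libraries) summed to 1712 and 1220 CPM in 2KO, 2368 and 2463 CPM in deltaEmu and 8226 and 7226 CPM in RAG2_deficient. Their part in the rRNA difference was not tested.

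**Figure D4:**
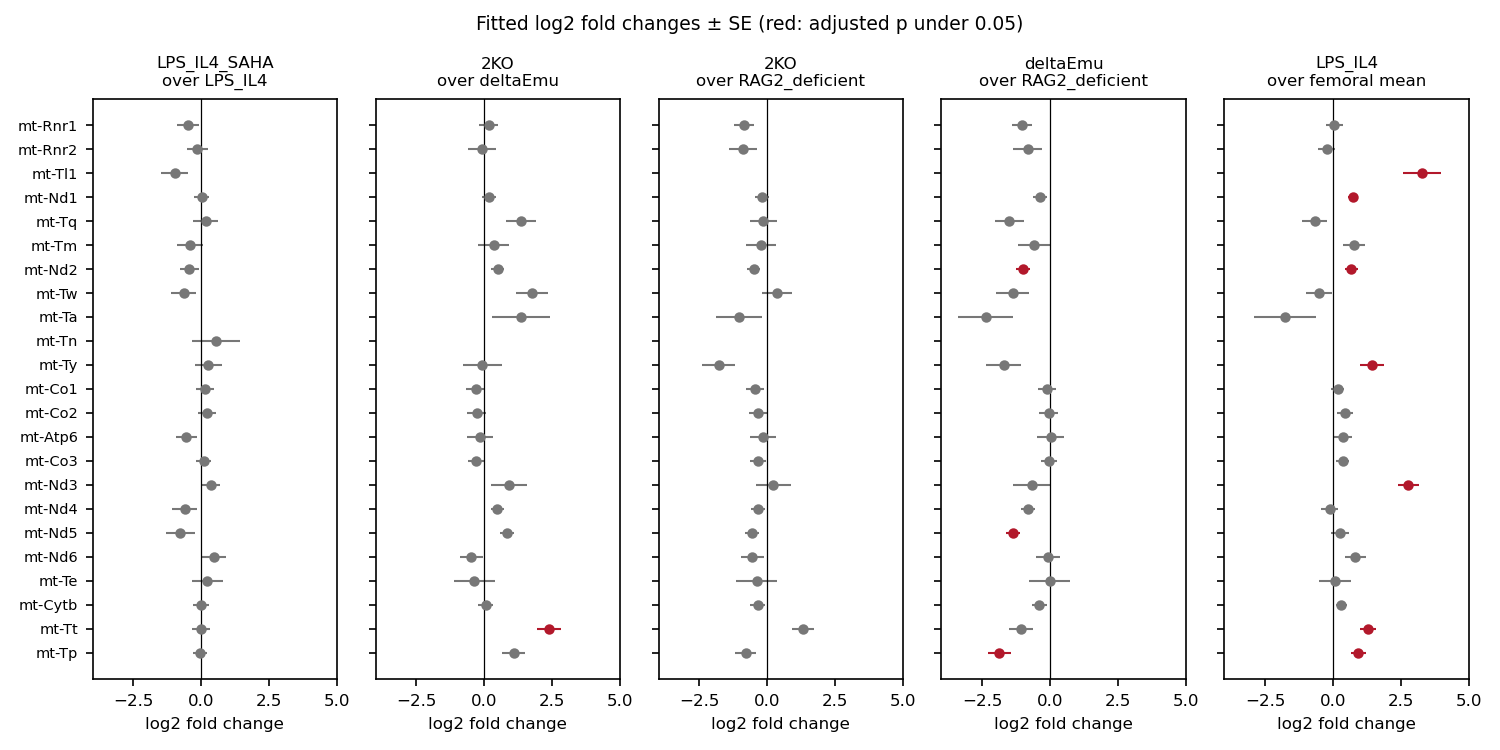
Fitted log2 fold change ± SE of each tested member in the 5 comparisons, first-named group over the second, in gene order from top to bottom; red marks an adjusted p under 0.05, which for mt-Tl1 in the last panel has a direction fixed by the filter. mt-Tg is left out because femoral libraries had 0 counts, and members without a point did not pass the filter on low counts. The filter also fixed the direction of mt-Ty and mt-Ta in the panels over RAG2_deficient.

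Cultured spleen cells were last set against the mean of the 3 femoral groups. Tissue, culture, strain and genotype differ together here and cannot be told apart. Of the 21 members that also passed the filter among the femoral libraries, LPS_IL4 had higher levels of 6 and lower levels of none. Among all 17483 genes, 61.2% were called, 26.6% higher and 34.6% lower. The called members were 3 tRNAs (mt-Ty, mt-Tt and mt-Tp) and 3 mRNAs of complex I (mt-Nd3, mt-Nd1 and mt-Nd2), and neither rRNA was called. mt-Tg and mt-Tl1 passed the filter through the spleen libraries, where they are high, so their direction was fixed by it and they are given as counts only. Erythroid markers summed to 1.93 and 5.43 CPM in LPS_IL4 and 2457 to 15436 CPM in the femoral libraries, and the part of other marrow cells in these differences was not tested.

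mt-Nd3 had the smallest adjusted p. It had 7.35 and 7.43 CPM in LPS_IL4_SAHA, and 7.16 and 4.06 CPM in LPS_IL4 (133 and 101 counts). In the femoral libraries it had 1.10 and 1.02 CPM in 2KO, 0.345 and 0.799 CPM in deltaEmu and 1.42 and 0.388 CPM in RAG2_deficient, on 7 to 24 counts each. Every spleen library lay above every femoral library (log2 2.78 ± 0.40, 6.87-fold, adjusted p = 0.000226). Its nuclear copy Gm28438 did not separate the tissues, with 15.5 ± 1.65 CPM in LPS_IL4_SAHA, 16.9 ± 7.57 in LPS_IL4, 12.7 ± 2.26 in 2KO, 14.0 ± 6.06 in deltaEmu and 16.5 ± 8.98 in RAG2_deficient (SD, n = 2 each). The copy held 1.93 to 3.11 times the counts of mt-Nd3 in the spleen libraries and 10.8 to 28.1 times in the femoral libraries. With both added, LPS_IL4 had 29.4 and 15.6 CPM, against 10.1 to 24.2 CPM in the femoral libraries, so the summed values overlapped. The spleen and femoral samples also differ in strain label, and whether the T3C position differs between the strains was not tested.

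mt-Tg, which abuts mt-Nd3, had 13 and 6 counts in LPS_IL4_SAHA, 6 and 13 counts in LPS_IL4 and 0 counts in all 6 femoral libraries. A count of 0 allows up to 3 counts per library, so no fold is given. mt-Tl1, between mt-Rnr2 and mt-Nd1, had 13 and 16 counts in LPS_IL4 and 0 to 5 counts in the femoral libraries, with 5 of them in 2KO 3. Both are small counts in every library.

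**Figure D5:**
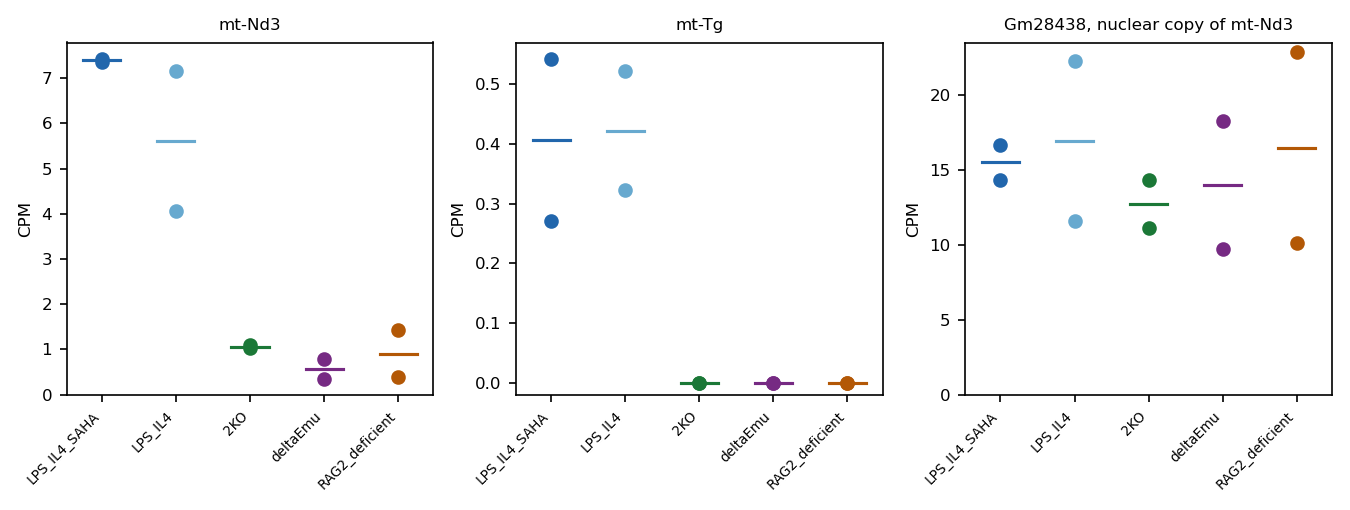
CPM of mt-Nd3, mt-Tg and Gm28438, the nuclear copy of mt-Nd3, in the 5 groups, 1 point per library, with a bar at the group mean. mt-Nd3 is higher in all 4 spleen libraries than in all 6 femoral libraries, whereas the copy overlaps between the tissues. mt-Tg has counts in the spleen libraries only, a direction fixed by the filter on low counts.

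mt-Nd1, directly after mt-Tl1, had 1527 and 1702 CPM in LPS_IL4, against a femoral range of 786.8 to 1203 CPM, with no overlap (log2 0.73 ± 0.19, adjusted p = 0.00682). mt-Nd2 had 367.1 and 675.8 CPM in LPS_IL4, and its femoral range of 186.1 to 467.2 CPM overlapped (log2 0.67 ± 0.24, adjusted p = 0.0347). Without LPS_IL4 6_et_8 it was not called (log2 0.28, adjusted p = 0.349), while mt-Nd4 was called lower (log2 -0.86, adjusted p = 0.0189), beside 59.3% of genes. It also missed the threshold without 2KO 1 (adjusted p = 0.0552), deltaEmu 5 (0.0522) or either LPS_IL4_SAHA library (0.0514 for each). mt-Ty for tyrosine had 1.45 and 0.723 CPM in LPS_IL4, mt-Tt had 6.56 and 5.10 CPM, and mt-Tp had 6.89 and 6.31 CPM. The highest femoral values of the same tRNAs were 1.07, 6.86 and 6.88 CPM, so the tissues overlapped while the 3 tRNAs were called, at log2 1.45 ± 0.45 (adjusted p = 0.0175), 1.29 ± 0.30 (adjusted p = 0.00466) and 0.94 ± 0.28 (adjusted p = 0.0161). Without LPS_IL4 4_et_7, mt-Ty (log2 0.89, adjusted p = 0.208) and mt-Tp (log2 0.87, adjusted p = 0.0617) were not called and mt-Nd5 was (log2 0.85, adjusted p = 0.0142).

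mt-Rnr1 had 1866 and 3738 CPM in LPS_IL4 and 1679 to 4762 CPM in the femoral libraries (log2 0.05 ± 0.30, adjusted p = 0.892). mt-Rnr2 had 18857 and 23815 CPM in LPS_IL4 and 17905 to 37910 CPM in the femoral libraries (log2 -0.23 ± 0.31, adjusted p = 0.546). The rRNA to mRNA ratio was 2.02 and 2.04 in LPS_IL4_SAHA, 2.08 and 2.55 in LPS_IL4 and 2.46 to 4.34 in the femoral libraries. Relative to the mt-mRNA total, mt-Ty, mt-Nd3 and mt-Tt stayed called, at adjusted p of 0.000107 to 0.0482, and mt-Nd1, mt-Nd2 and mt-Tp were not, where 59.8% of all genes were called.

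Nuclear genes that serve the mitochondrial genome were counted in 7 lists. None of their members was called in LPS_IL4_SAHA against LPS_IL4, nor in 2KO or deltaEmu against RAG2_deficient, where 0%, 4.31% and 9.81% of all genes were called. Between 2KO and deltaEmu the call was Cdk5rap1 alone, a modifier of mitochondrial tRNAs (log2 1.49 ± 0.27, adjusted p = 0.0264), where 3.70% of all genes were called. It averaged 23.1 ± 3.37 CPM over the 2KO pair of libraries, against 8.26 ± 0.188 over the deltaEmu pair (SD, n = 2 each). That left 0 called of 28 genes of mitochondrial transcription and RNA turnover, 12 of mitochondrial DNA replication and 20 synthetases or amidotransferase subunits. Nor was any called of 8 regulators of biogenesis, 76 mitochondrial ribosomal proteins and 80 nuclear subunits of oxidative phosphorylation in that comparison.

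In LPS_IL4 against the femoral mean, all 7 lists held more higher than lower calls. Transcription and RNA turnover had 24 higher and 0 lower of 28 tested, with a median log2 fold change of 0.82, against -0.15 over all genes. Against these counts, 26.6% of all genes were called higher and 34.6% lower. Supv3l1, an RNA helicase of mitochondrial RNA decay, had 66.8 ± 2.68 CPM in LPS_IL4 and 22.2 ± 3.60 CPM in the 6 femoral libraries (log2 1.60 ± 0.13, adjusted p = 5.91e-06). Elac2, which cuts the 3' ends of tRNAs, had 75.0 ± 2.22 CPM in LPS_IL4 and 24.8 ± 2.92 CPM in the femoral libraries (log2 1.60 ± 0.13, adjusted p = 6.1e-06). Mitochondrial ribosomal proteins had 63 higher and 1 lower of 76 (median 0.92), with Mrpl45 at log2 2.05 ± 0.14 and Mrps27 at 1.66 ± 0.15.

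Aminoacyl tRNA synthetases, listed together with amidotransferase subunits, had 14 higher and 0 lower of 20 (median 0.64). The list was led by Rars2 for arginine (log2 1.27 ± 0.12) and Qrsl1, a subunit of the glutamine amidotransferase (1.30 ± 0.12). tRNA and rRNA modifiers had 8 higher and 0 lower of 14 (median 0.56), with Trnt1, which adds CCA ends to tRNAs, at 1.68 ± 0.14 and the pseudouridine synthase Pus1 at 1.58 ± 0.16. Replication genes had 7 higher and 1 lower of 12 (median 0.48), among them the helicase Peo1 (1.09 ± 0.13) and the topoisomerase Top1mt (1.32 ± 0.17). Nuclear subunits of oxidative phosphorylation had 27 higher and 2 lower of 80 (median 0.47). Atp5b, the catalytic beta subunit of complex V, was higher (1.22 ± 0.20), and Cox6b2, a testis form of a complex IV subunit, was lower (-5.82 ± 0.67). Regulators of biogenesis had 2 higher and 1 lower of 8 (median 0.02), with Pprc1 higher (1.19 ± 0.33) and the coactivator Ppargc1a lower (-1.60 ± 0.42).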

How the data were processed

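RNA sequencing of 10 mouse libraries was used. Raw counts per gene, with coordinates and lengths, were deposited by the authors in 1 table. STAR 2.4.0a, featureCounts (Subread 1.4.6-p1) and mm10/GRCm38 are named in the submitters' processing notes. Stranded total RNA libraries were made from miRNeasy RNA, per the labels' protocols. The sources used here do not give the strand setting, the annotation release or the handling of reads with several matches or in overlapping genes. In the table, 9 pairs of neighbouring members share 1 to 43 bases. Counts of 100 control sequences (at most 6.86e-05% of a library) were left out of library sizes and tests.

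Counts were tested with edgeR 4.0.16 (R 4.3.3, limma 3.58.1): genes filtered with filterByExpr (minimum count 10), TMM scaling, the quasi-likelihood test and Benjamini-Hochberg adjustment over all genes of the fit, threshold 0.05. The 4 spleen libraries, the 6 femoral libraries and all 10 libraries were fitted separately. Levels are CPM with TMM sizes over all 10 libraries. A further fit used the summed mt-mRNA count as library size. Sums over classes, shares and lists carry no p. Alternatives were DESeq2 1.42.0, RLE factors, no filter, sizes from other nuclear genes, 2-group fits, a pool block and leaving out each library. Members and lists were chosen with earlier results of these data known. Named with their test are all called members (mt-Tg and mt-Tl1 without it, since the filter fixed their direction), both rRNAs, the mRNA with the largest change, and the first 2 calls of each list by adjusted p. Where other members are named, they were chosen after their values were seen. Low counts limit tRNA genes most, and the 3 counts that a count of 0 allows cover counting error only. Whether the reads of tRNA genes came from mature tRNAs or from longer precursors was not tested.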

Additional observations from a re-analysis of the deposited data

Results flagged for a closer look

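Control sequences, which are outside every comparison, drew a few counts above the 3 that a count of 0 allows. There were 17 such counts in LPS_IL4_SAHA 6_et_8, 5 in LPS_IL4 4_et_7, 4 in 2KO 1 and 7 in RAG2_deficient 1. The labels mention no added control RNA.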

How the results depend on the processing

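The SAHA comparison had 0 members called in every setting that kept all libraries, the pool block included (0 members with the pools as labelled and 0 with them crossed), and 0 to 5 when each library was left out. Same-pool deviations correlated at -0.478 over 13913 genes. With 2 libraries per group a single library can set this value, so it cannot show whether the pool numbers pair the samples. For 2KO against deltaEmu the count of 1 became 5 without a filter, 2 with DESeq2, 2 in the fit of only these groups and 0 to 2 with a library left out. For 2KO against RAG2_deficient 0 became 1 without a filter, 2 with DESeq2 and 0 to 2. For deltaEmu against RAG2_deficient 3 became 8 without a filter, 6 with DESeq2, 1 in the fit of only these groups and 0 to 4. With RLE factors mt-Nd2 missed the threshold there (adjusted p = 0.0511). Scaling to the mt-mRNA total without mt-Co1 gave 2 calls for 2KO against deltaEmu and 1 for deltaEmu against RAG2_deficient. Without rRNA genes the mitochondrial shares were 1.01% in LPS_IL4_SAHA, 1.04% in LPS_IL4, 0.840% in 2KO, 0.850% in deltaEmu and 1.08% in RAG2_deficient. Named members turned sign only with a library left out. Their log2 ranges were -0.87 to 0.13 for mt-Rnr1, -0.27 to 0.056 for mt-Rnr2 and -1.34 to 0.26 for mt-Nd5 under SAHA, -0.095 to 0.49 for mt-Rnr1 and -0.30 to 0.19 for mt-Rnr2 in 2KO against deltaEmu, and -0.42 to 0.47 for mt-Rnr1 in LPS_IL4 against the femoral mean. None of these was called in the fit reported. The cause of these changes was not tested. A lone sample left in a group is assumed to vary like the other groups. With single libraries left out, the log2 ratio of tRNA sums ran from 0.92 to 2.18 in 2KO over deltaEmu and from -2.16 to -0.92 in deltaEmu over RAG2_deficient, and that of rRNA sums from -0.88 to -0.84 in 2KO over RAG2_deficient and from -1.05 to -0.60 in deltaEmu over RAG2_deficient. All 3 class sums under SAHA, the rRNA sum in 2KO over deltaEmu and the tRNA sum in 2KO over RAG2_deficient took both signs, the 2 tRNA sums among them also with RLE factors. In LPS_IL4 against the femoral mean, 7 to 11 members were called with a library left out, mt-Tl1 and mt-Tg included.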
